A study of Mus musculus with 6 samples.

Results

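The samples described here are the 3 of 6 in which mouse pre-pro-B cells lacking Ebf1 had been infected with an empty control retrovirus. They were chosen by their titles, which name the empty pMYs vector, and were taken as the resting programme of these cells. All 6 samples share the Ebf1 -/- genotype. All were grown on a layer of OP9 stromal cells with 3 cytokines at 10 ng/ml each, namely stem cell factor, Flt3-ligand and interleukin 7, and all were sorted for EGFP 24 h after spin infection. The 3 control samples received pMYs-IRES-EGFP, which encodes only the green fluorescent marker, and the other 3 received the same vector with Ebf1beta in front of the marker. The labels give neither the age, sex or strain of the source animals nor whether the 3 samples of a group came from separate cultures, so p-values measure only the spread between these samples, which may be technical. The cells were progenitors kept in culture on feeder cells, and the control arrays are of infected and sorted cells, not of untouched ones.

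Pre-pro-B cells, called fraction A (Fr.A in the labels), are the earliest bone marrow cells counted to the B cell pathway. They carry the interleukin 7 receptor and the cytokine receptors Kit and Flt3, and have not begun to transcribe the genes of committed B cells. Ebf1 is a transcription factor that works with Tcf3 and Foxo1 to switch on those genes together with Pax5. Without it development stops at this stage, and cells lacking Ebf1 are known for keeping the ability to form T cells, innate lymphoid cells and myeloid cells.

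Each sample was hybridised to 1 Agilent 1-colour array with 41174 different probes after control features were left out. The array's 75th percentile signal was 366, 240 and 261 on control replicates 1 to 3 and between 316 and 364 on the Ebf1-virus arrays. A probe was counted as present when the scanner software marked it well above background on all 3 control arrays. Levels are given as log2 of the probe's processed signal over the 75th percentile signal of its array, so 0 stands for the 75th percentile itself. The percentile rank of a probe is its place among the 41174 probes, averaged over the 3 arrays. Ranks order probe signals, not transcript numbers, because probes differ in how strongly they bind. Control arrays correlated at 0.985 to 0.988 over all probes (Pearson's r, across probes, which are not independent replicates). Control replicates 2 and 3, which lie on different slides, differed by a median of 0.15 log2 over present probes. Replicate 1 differed from them by 0.22 and 0.23, and it was the array farthest from the median of the 3 for 47.0% of present probes.

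On the control arrays 18686 probes were present (45.4%), 1163 were above background on 2 arrays, 1935 on 1, and 19390 (47.1%) on none. By gene, 10305 of 17907 genes with a symbol had at least 1 present probe (57.5%), and 6375 (35.6%) had no probe above background on any control array. The share rose with the number of probes a gene has, from 47.2% of genes with 1 probe to 77.3% of those with 3 or more. It also differed with where the probe lies along the gene, and per the labels first-strand synthesis was primed with oligo-dT, from the 3' end of the transcript. Among 2922 genes whose outermost probes lie over 10000 bases apart, the most 3' probe was present for 62.7% and the most 5' probe for 37.1%. With the outermost probes up to 1000 bases apart, the shares were 62.5% and 62.0%. Each gene is described by its probe that was above background on the most control arrays and, among such probes, had the highest mean signal. Probes of 1 gene disagreed on presence for 2203 of 7958 genes with 2 or more probes.

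**Figure D1:**
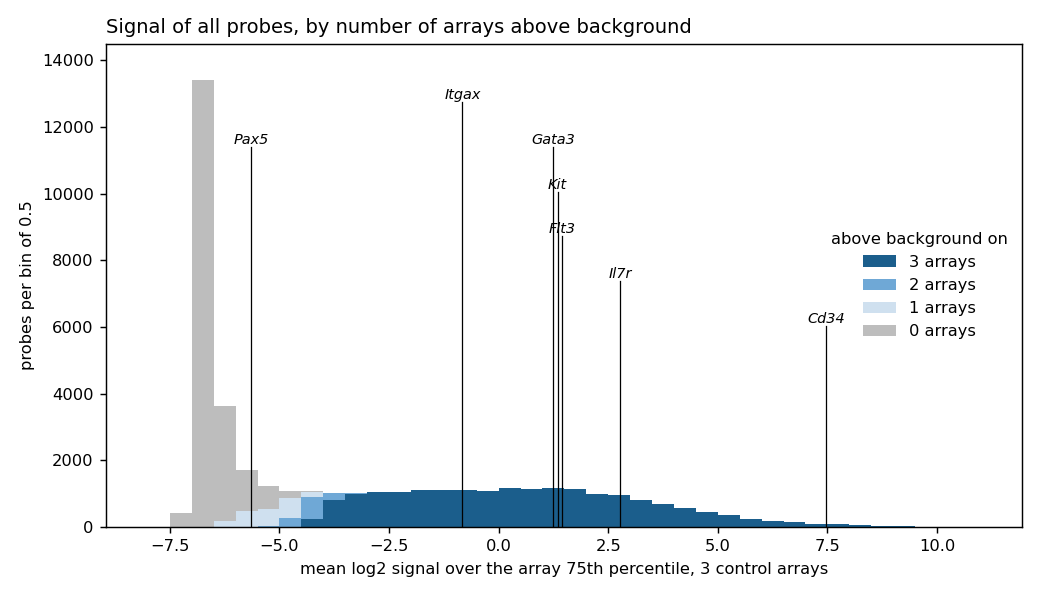
Mean log2 signal over the array's 75th percentile for all probes on the 3 control arrays, in bins of 0.5, with bars split by the number of control arrays on which a probe was well above background. Cd34 (7.48) and Il7r (2.77) lie in the upper tail, while Pax5 (-5.65) lies on the upper shoulder of the peak of probes above background on 0 arrays.

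The 5 genes set as marks of this cell stage were all present. Il7r, the receptor chain through which interleukin 7 sustains early lymphoid cells, had levels of 2.70, 2.95 and 2.67 on control replicates 1 to 3, at percentile rank 90.0. Kit, the receptor for stem cell factor, had levels of 1.09, 1.47 and 1.48, at rank 82.8. Flt3, the receptor for Flt3-ligand, had levels of 1.71, 1.45 and 1.20, at rank 83.4. Each of the 3 culture cytokines thus had a receptor transcript well above background on every control array. Gata3, a transcription factor of T cells and innate lymphoid cells, had levels of 0.98, 1.41 and 1.35, at rank 82.3. Itgax, the integrin chain CD11c of dendritic cells, had levels of -0.92, -0.62 and -0.94, at rank 70.8, the lowest signal of the 5. The spread among the 3 arrays was small beside the distance of all 5 from background, the largest SD being 0.25 for Flt3.

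The probes of these 5 genes are placed on mm9 in the file annotation. They lie at chromosome 15, 9435976 to 9436035 for Il7r, chromosome 5, 76052287 to 76052346 for Kit, chromosome 5, 148159595 to 148159654 for Flt3, chromosome 2, 9778983 to 9779042 for Gata3 and chromosome 7, 135294052 to 135294111 for Itgax. Kit, Flt3 and Gata3 have 1 probe each, and the probes of the other 2 genes disagreed. A second Il7r probe was present at -2.02, -2.28 and -2.73, and the other was above background on 0 arrays at -6.78, -5.0 and -5.19. The second Itgax probe was above background on 0 arrays, at -5.77, -6.18 and -6.78.

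Ebf1 itself, the deleted gene, was read by 2 probes that also disagreed. The probe at chromosome 11, 44818365 to 44818424 (mm9), was present at 0.86, 0.10 and 0.36. The probe at 44462618 to 44462677 was above background on 0 arrays, at -6.05, -6.48 and -7.10. The present probe did not separate the groups, with 0.22, 0.40 and 0.27 on the Ebf1-virus arrays and a change of -0.15 ± 0.21 (SE, limma, adjusted p = 0.65). Whether either probe lies in the deleted part of the gene or in the Ebf1beta insert is not given in the sources used here, so these values check neither the genotype nor the virus.

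Genes were grouped into 20 lists by lineage or function, with 384 distinct genes on the array. The 10 lists of blood lineages hold 206 distinct genes, of which 122 (59.2%) were present and 67 were above background on 0 control arrays, against 57.5% of all genes with a symbol. The lineage genes as a whole were thus present about as often as any gene, and the lists differed among themselves from 88.2% to 7.69%. In bulk RNA a low level can come from few cells that carry a transcript or from little transcript in every cell, and these cannot be told apart here. For the same reason, genes of several lineages present together do not show that they share a cell.

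**Figure D2:**
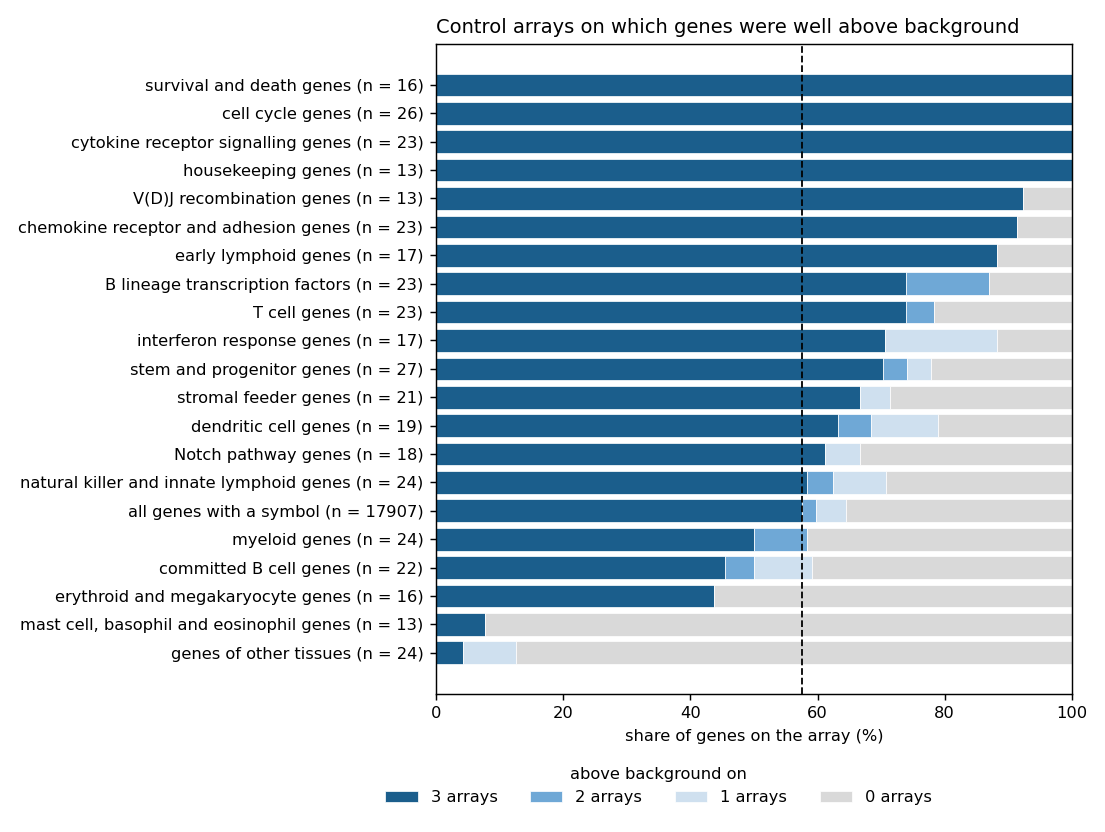
Share of each list's genes, in percent of those on the array, that were well above background on 3, 2, 1 or 0 control arrays, counting a gene by its best probe. The dashed line marks the 57.5% of all genes with a symbol present on 3 arrays. The cell cycle, cytokine signalling, survival and housekeeping lists reach 100%, and the mast cell and other-tissue lists lie under 10%.

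Early lymphoid genes were present for 15 of 17, with a median level of 2.77. Cd34, a sialomucin of progenitor cells, had levels of 7.03, 7.65 and 7.75, at rank 99.5, the highest signal in the 10 lineage lists. Cd93, which carries the AA4.1 epitope of early B lineage cells, had 4.68, 4.95 and 4.95. Ly6d, which marks lymphoid progenitors turned toward the B pathway, had 4.52, 5.18 and 4.87. Replicate 1 was the lowest of the 3 for all of these, and all 3 arrays were far above background. Ptprc, the leukocyte antigen CD45 whose B cell form is B220, had 4.65, 4.93 and 4.91. Spn, the CD43 molecule that marks the earliest B cell fractions, had 4.22, 4.23 and 4.12. Cd24a, the heat-stable antigen that rises as B cells mature past this stage, had 2.26, 2.26 and 2.15. The genes behind the B220 and CD43 marks of fraction A were thus present, though the array does not say which form of CD45 its Ptprc probe read. Cd24a was present as well, but its antigen rises past this stage, so its presence is not a mark of fraction A. Satb1, a chromatin organiser of lymphoid progenitors, and Cd27, a receptor of multipotent progenitors, were present at 4.84 ± 0.05 and 3.13 ± 0.08 (SD, n = 3).

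The recombination genes that build antigen receptors were present for 12 of 13, with Rag2 as the exception. Rag1 had levels of -2.29, -1.94 and -2.43, at rank 63.4. Rag2, its partner in cutting DNA, was above background on 0 arrays by its 1 probe, at -6.38, -6.39 and -6.03. Dntt, the enzyme that adds bases at the joins, had -1.88, -1.74 and -1.01, and 1 of its 3 probes was above background on 0 arrays. The general end-joining genes had higher ranks. Xrcc5, the Ku80 subunit that holds broken ends, was at 2.93 ± 0.10 (SD, n = 3, rank 90.7), and Poll, a repair polymerase, at 3.10 ± 0.20 (rank 91.5). Hmgb1, a chromatin protein that helps the recombinase bend DNA, was at 6.02 ± 0.17 (rank 98.6).

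Among B lineage transcription factors 17 of 23 were present, among them the factors Tcf3, Foxo1 and Spi1 that are known to act with Ebf1 or before it. Tcf3, the E protein that works with Ebf1, had levels of 3.72, 3.94 and 3.88. Foxo1, its other partner, had -1.84, -2.07 and -2.19. Spi1, the PU.1 factor of myeloid and lymphoid progenitors, had -2.19, -2.34 and -2.15. Tcf3 ranked at 94.2 while Foxo1 and Spi1 ranked at 64.4 and 63.3. Ikzf1, the Ikaros factor that opens the lymphoid programme, was nearly the same on all arrays at 0.48, 0.48 and 0.45. Bcl11a, needed for early lymphoid cells, had 1.90, 1.50 and 1.70, and Irf8, shared by B and dendritic cells, 2.89, 2.78 and 2.93. The highest signals of the list were those of Cbfb, the partner of the Runx proteins (5.60 ± 0.25, SD, n = 3), Myb (5.06 ± 0.18), a factor of all blood progenitors, and Mef2c (3.95 ± 0.28). Pax5, the factor that seals B cell commitment, was above background on 0 arrays, at -6.44, -4.81 and -5.70. Pou2af1, an octamer coactivator of B cells, was at -7.02, -5.49 and -7.11, also on 0 arrays, as was Irf4 at -5.29, -6.68 and -4.99. Ikzf3, the Aiolos factor, lay at the edge of the presence call, above background on 2 arrays at -3.36, -4.68 and -4.64.

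Committed B cell genes were present for 10 of 22, and the ones with the highest signals encode signalling proteins that other blood cells also use. Plcg2, a phospholipase downstream of immune receptors, was at 6.44 ± 0.17 (SD, n = 3), Syk, a receptor-proximal kinase, at 3.09 ± 0.09 and Lyn, a Src family kinase, at 2.80 ± 0.21. Of the 10 defining genes of the list 3 were present, namely Btk, Vpreb1 and Cd79b. Btk, a kinase of B and myeloid cells, had levels of 2.26, 1.88 and 2.44. Vpreb1, a part of the surrogate light chain of pre-B cells, had 0.28, 0.56 and 0.45. Igll1, its partner in that light chain, was above background on 2 arrays at -4.43, -4.62 and -4.63. Cd79b, which transmits signals from surface immunoglobulin, had -1.91, -2.08 and -1.85. Cd79a, the other chain, was above background on 0 arrays at -5.67, -6.55 and -6.10. Each pair thus had 1 chain present on all arrays, while the other was above background on 2 arrays in the surrogate light chain and on 0 in the immunoglobulin pair. Blnk, an adaptor of the pre-B cell receptor, was above background on 0 arrays at -6.90, -6.44 and -7.13. Vpreb3 and Cd22 were likewise above background on 0 arrays. Ms4a1, the CD20 antigen, was above background on replicate 2 alone, at -7.12, -2.96 and -7.29.

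Transcripts from the antigen receptor loci, which were looked up after their values had been seen, are given by probe, since the lists hold none of them. All 3 probes for the mu constant region on chromosome 12 were present, the highest at a mean of 6.13 ± 0.15 (SD, n = 3). Of 33 heavy chain variable probes on that chromosome 19 were present, up to 4.62, but V probes can share sequence and cannot be counted as separate genes. For the kappa locus 1 of 47 probes was present. T cell receptor probes were present for 6 of 10 at the beta locus, 2 of 2 at gamma, 1 of 3 at delta and 5 of 14 at alpha. The highest of these, counted to delta, had a mean of 1.46 ± 0.13 (SD, n = 3). Probes were put to loci by the array's names and descriptions. A probe counted to delta is named Trav13d-4, an alpha variable name, and another lies between alpha probes on chromosome 14. The delta and alpha counts thus do not separate these loci.

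T cell genes were present for 17 of 23, a share of 73.9%. The members with the highest signals encode receptor-proximal kinases and surface antigens. Txk, a Tec family kinase, was at 4.16 ± 0.29 (SD, n = 3), Lck, the kinase that starts T cell receptor signals, at 3.53 ± 0.06 and Zap70, which acts next, at 3.28 ± 0.12. Thy1, an antigen of T cells and innate lymphoid cells, had levels of 1.81, 2.10 and 2.52. Tcf7, a factor that opens the T cell programme under Notch, had -1.53, -1.41 and -0.97, at rank 68.3. The CD3 chains, which carry the signal of the T cell receptor, had lower ranks. Cd3d had -0.78, -2.28 and -1.66, with replicate 1 highest. Cd3g had -2.43, -2.46 and -1.84, and Cd247, the zeta chain, -2.59, -2.37 and -1.85. Cd3e was above background on 2 arrays, at -3.88, -4.46 and -4.65. Genes of later T cell stages were above background on 0 arrays: Bcl11b, the T cell commitment factor, at -7.05, -5.91 and -7.20, and Ptcra, the pre-T cell receptor alpha chain, at -7.07, -6.61 and -7.26, together with the coreceptor genes Cd4 and Cd8a.

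Genes of natural killer and innate lymphoid cells were present for 14 of 24, and 7 of the 10 defining ones were. Fcer1g (5.33 ± 0.21, SD, n = 3) and Tyrobp (5.27 ± 0.16), adaptor chains that receptors of natural killer and myeloid cells share, had the highest signals. Nfil3, a factor needed to form innate lymphoid cells, had levels of 3.87, 4.21 and 4.54, at rank 95.2. Id2, the inhibitor of E proteins that all innate lymphoid cells use, had 3.23, 3.44 and 3.43, at rank 92.6. Il2rb, the receptor chain for interleukin 15, had 4.06, 3.90 and 4.0, at rank 94.6. Il18r1, an interleukin 18 receptor chain, was at 4.18 ± 0.26. All of these were above background on every array. Genes of the separate innate subsets had lower ranks. Tbx21, the T-bet factor, had -3.80, -3.23 and -3.12, at rank 57.3. Il1rl1, the interleukin 33 receptor of type 2 innate cells, had -3.23, -2.23 and -2.83, and Gzma, a cytotoxic granule protease, 0.15, -0.12 and 0.25. Eomes was above background on 2 arrays at -4.12, -4.67 and -3.93, Rora on 1 at a mean of -4.98, and Ncr1, a natural killer receptor, on 0 at a mean of -6.52.

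Of the myeloid genes 12 of 24 were present. They included early factors and receptors. Cebpb, a factor of myeloid and stressed cells, had levels of 2.88, 3.46 and 3.36. Cebpa, which starts the granulocyte programme, had -2.55, -2.11 and -2.46, and Gfi1, which Cebpa works with there and which also acts in lymphoid progenitors, -0.47, -0.60 and -0.60. Fcgr3, a receptor for immunoglobulin G, was at 3.25 ± 0.22 (SD, n = 3), and Adgre1, the F4/80 antigen of macrophages, at 3.72 ± 0.35. Mpo, the peroxidase of early granulocyte granules, had 1.76, 2.02 and 2.25, at rank 86.4. Csf2rb and Csf2ra, the chains of the GM-CSF receptor, were at 1.51 ± 0.14 and -1.24 ± 0.25. Lyz2, lysozyme, had the lowest signal of all present listed genes, at -4.40, -4.23 and -3.95. Csf1r, the macrophage growth factor receptor, lay just outside, above background on 2 arrays at -5.01, -4.21 and -4.28. Genes of later granulocytes and monocytes did not pass: S100a8, S100a9, Elane, Csf3r and Itgam were above background on 0 arrays, with means from -6.90 to -6.26.

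Dendritic cell genes were present for 12 of 19. Bst2, an antigen of plasmacytoid dendritic cells that interferon also raises, was at 6.09 ± 0.15 (SD, n = 3), and Ccr9, a homing receptor of gut and thymus, at 2.98 ± 0.18. Tcf4, the E protein that plasmacytoid dendritic cells depend on, had levels of 1.87, 1.90 and 1.88. Runx2, also of that lineage, was at 2.94 ± 0.26. Siglech, a surface lectin of the same cells, had -3.37, -3.74 and -3.88, just inside the presence call. Batf3, a factor of conventional dendritic cells, had -0.69, -0.51 and 0.04, and their receptor Clec9a was above background on 0 arrays. Cd74, the invariant chain that escorts MHC class II, had 2.17, 2.05 and 2.41. The class II genes did not pass: H2-Aa (-6.96, -6.50 and -7.04) and Ciita (-6.98, -6.45 and -7.10), the activator of class II genes, were above background on 0 arrays and H2-Ab1 on 1.

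Stem and progenitor genes were present for 19 of 27. Besides Cd34 the highest signals were those of Lyl1 (6.01 ± 0.19, SD, n = 3), Myb, Hoxa7 (4.98 ± 0.16) and Mycn (4.82 ± 0.03), all factors of early blood cells. Hoxa9 had levels of 2.01, 1.66 and 2.04, and Meis1, its cofactor, -0.23, -0.38 and -0.63. Tal1, which founds the blood lineage, had 0.34, 0.78 and 0.72, and Lmo2, its partner, -1.44, -1.44 and -1.51. Ly6a, the Sca-1 antigen of stem cells, had -1.44, -1.62 and -1.38, below the 75th percentile on every array. Mecom, a factor of long-term stem cells, and Gata2 were above background on 0 arrays, at means of -6.70 and -5.14. The defining genes of the list were thus present for 8 of 11.

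**Figure D3:**
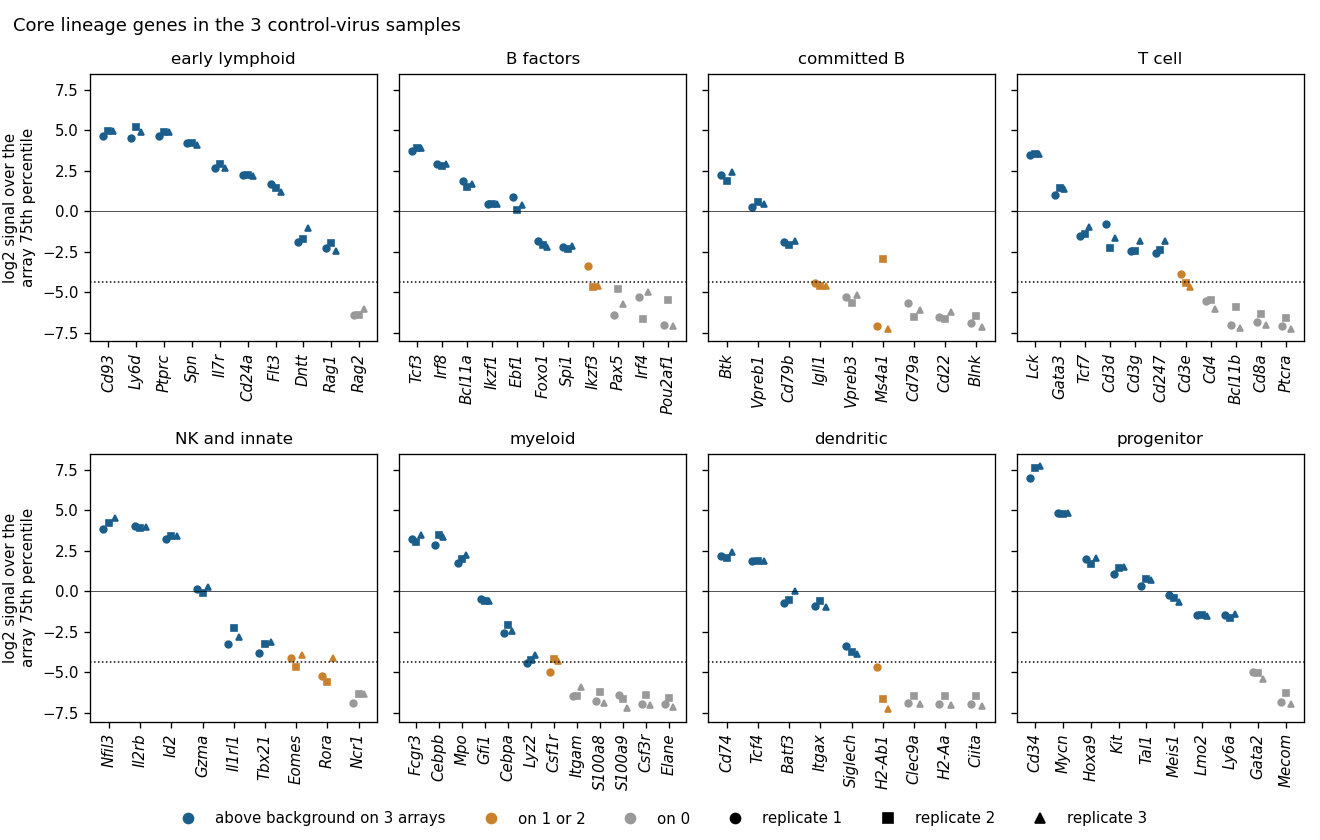
Level of core genes of 8 lineage lists in every control sample, as log2 signal over the array's 75th percentile, with 1 symbol per replicate and colour giving the number of arrays above background. The dotted line is the highest of the 3 arrays' lowest above-background signals, at -4.35. In every list shown some genes lie above that line on all arrays, such as Il7r (2.77) and Kit (1.34), and others below it, such as Pax5 (-5.65) and Gata2 (-5.14).

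Lists of more distant lineages differed. That of erythroid and megakaryocyte genes had a share present near that of committed B cell genes, 43.8% against 45.5%. The list of mast cells, basophils and eosinophils was nearly empty. Erythroid and megakaryocyte genes were present for 7 of 16, and only 2 of the 7 defining genes were, Epor (-1.15, -0.78 and -0.44), the erythropoietin receptor, and Itga2b (-2.55, -2.20 and -1.88), the CD41 integrin chain. The highest signals in that list were those of Tfrc (3.24 ± 0.15, SD, n = 3), the transferrin receptor of all dividing cells, Zfpm1 (1.98 ± 0.20), a cofactor of Gata proteins, and Gp9 (1.94 ± 0.15), a platelet glycoprotein. Gata1, Klf1, Hba-a1 and Pf4 were above background on 0 arrays. Of 13 genes of mast cells, basophils and eosinophils 1 was present, the protease Cpa3, at -2.81, -2.86 and -1.75. Genes of other tissues, taken as a check on the presence call, were present for 1 of 24. This was Actc1, cardiac actin, at -1.08, -1.14 and -2.59, and the genes of liver, brain, skin, lung and kidney among its defining members were above background on 0 arrays.

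Signals of genes typical of stromal cells were read beside these lists, since the OP9 feeder cells are stromal. The sort for EGFP selects infected cells, and no measurement here ties these signals to the feeder layer. Of 21 genes of stromal cells 14 were present. Acta2, a smooth muscle actin, was at 4.43 ± 0.18 (SD, n = 3), Pdgfrb, a receptor of mesenchymal cells, at 2.85 ± 0.24, and the collagen genes Col1a2 and Col1a1 at 2.25 ± 0.17 and 1.87 ± 0.39. The count was 7 when every probe of a gene had to be present, because probes of Acta2, Col1a1 and Col1a2 disagreed among others. Dcn, Postn, Vcam1 and Pdgfra, 4 of the 10 defining genes, were above background on 0 arrays. The summed linear signal of the list was 42.6 to 44.5 times the 75th percentile signal on the control arrays and 49.8 to 61.1 times on the Ebf1-virus arrays. The part of feeder transcripts in the other lists was not tested.

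All 23 genes of cytokine receptor signalling were present, at a median level of 4.00. Crlf2, the receptor of thymic stromal lymphopoietin that pairs with Il7r, had levels of 3.73, 4.51 and 4.51, with replicate 1 lowest. Jak1 and Jak3, the kinases of the interleukin 7 receptor, were at 2.98 ± 0.35 and 2.21 ± 0.09 (SD, n = 3). Stat5b, a factor they activate, had 2.84, 3.38 and 3.56, and Stat5a 1.80, 1.47 and 1.56. Genes that Stat5 is known to induce, and whose products damp the receptors, had ranks of 97.0 and over: Cish (5.14 ± 0.06), Socs1 (5.21 ± 0.15) and Socs2 (4.96 ± 0.11). Pim1, a survival kinase induced the same way, was at 2.14 ± 0.27, and Ccnd2, the cyclin that growth factors raise, at 5.64 ± 0.17.

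All 26 cell cycle genes were present, from DNA replication to mitosis. Mcm6, a subunit of the replication helicase, had levels of 7.82, 8.12 and 8.18, at rank 99.7. Pcna, the sliding clamp of DNA polymerase, had 6.44, 6.94 and 6.88, and Mki67, the proliferation antigen, 5.76, 5.72 and 5.66. Of the mitotic genes, Ccnb1 was at 2.67 ± 0.25 (SD, n = 3), Cdk1 at 2.61 ± 0.20 and Top2a at 2.76 ± 0.42. The inhibitor genes were present too. Cdkn1a, the p21 inhibitor, had 2.78, 2.66 and 3.03, Cdkn1b, the p27 inhibitor, 0.41, 0.78 and 1.03, and Cdkn2a, which often rises in cultured cells, -1.38, -1.91 and -1.72. All 16 survival and death genes on the array were present. Bcl2, which protects lymphocytes, had 5.51, 5.90 and 6.0, at rank 98.3, and its opponents Bcl2l11, the Bim protein, and Bax were at 2.52 ± 0.24 and 3.92 ± 0.09. Trp53, the p53 gene, was at 0.72 ± 0.19, and its target genes Bbc3 and Pmaip1 at 4.34 ± 0.23 and 3.77 ± 0.35. The 13 housekeeping genes had a median rank of 99.5.

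Notch pathway genes were present for 11 of 18. Notch1, the receptor that sends lymphoid progenitors to the T cell fate, had levels of 0.51, 0.21 and 0.12. Notch2 had 2.30, 2.20 and 2.40, and Rbpj, the nuclear partner of both, 0.84, 1.28 and 1.27. Of the targets, Dtx1 had -2.49, -2.93 and -2.14, at rank 61.9, and Hes1 was above background on 0 arrays, at -6.92, -6.48 and -5.53. Of these 5 genes Hes1 alone was not present. Mfng and Lfng, which modify the receptors, were at 2.92 ± 0.17 and 0.27 ± 0.11 (SD, n = 3).

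Chemokine receptor and adhesion genes were present for 21 of 23. Selplg, the ligand of P-selectin, was at 5.92 ± 0.16 (SD, n = 3), Itgb7, an integrin chain of gut homing, at 5.61 ± 0.13 and Cd44 at 3.83 ± 0.08. Cxcr5, known as a receptor of mature follicular B cells, had levels of 4.22, 4.05 and 4.28, at rank 95.2. Cxcr4, which keeps progenitors in bone marrow, had -0.55, -0.62 and -0.35, at rank 72.6. Itga4, which holds progenitors to stroma, had 2.68, 1.88 and 2.44, with replicate 2 lowest. Interferon response genes were present for 12 of 17. Irf7, a factor that interferon raises, had -0.54, -0.57 and -0.58, and Isg15 -1.45, -1.55 and -1.06, while Ifit1 was above background on 0 arrays.

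The highest signals belonged mostly to ribosomal protein genes. Of the 15 genes with the highest mean, 10 encode ribosomal proteins, from Rps18 (9.98) to Rplp1 (9.42), and of the top 50, 35 do. The others in the top 15 were Lars2 (10.43 ± 0.32, SD, n = 3), the mitochondrial leucyl-tRNA synthetase, Ptprz1 (9.89 ± 0.18), a receptor phosphatase of the nervous system, Fau (9.63 ± 0.24), which encodes a ribosomal protein fusion, the histone gene H2ac1 (9.49 ± 0.29) and Grn (9.49 ± 0.35), progranulin. The Ptprz1 level came from 1 of 4 probes, and the other 3 were above background on 0 arrays, at means of -6.69, -6.87 and -7.03. The second Grn probe was present too, but at a mean of 0.37 (rank 77.3). Lars2, Fau and H2ac1 are read by 1 probe each, so no other probe checks their levels. Chosen after their values were seen, Jchain, the joining chain of polymeric antibodies, had 8.06, 8.48 and 8.31 and Plac8, a gene of lymphoid and myeloid progenitors, 8.05, 8.19 and 8.23.

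The spread among the 3 control arrays was small for most present probes. Its median SD was 0.17 log2, falling from 0.27 for probes under -3 to 0.14 for those between 3 and 6. Of genes with a symbol that were present, the 10 with the largest SD were Tent5c (1.78), Ash1l, Akap4, Ica1l, Ttc26, Loxl2, Rab27a, Serpinb1b, Pabpc2 and Nkpd1 (1.18). Tent5c, a poly(A) polymerase, had -3.98, -4.08 and -0.95, with replicate 3 alone high. Ash1l, a histone methyltransferase, had 0.63, -2.51 and -2.30 and Ttc26 0.88, -1.61 and -1.71, with replicate 1 alone high in both. Akap4 had -0.61, -0.25 and -3.17, with replicate 3 low, and Rab27a, a vesicle protein, -0.32, 2.35 and 2.07, with replicate 1 low. Each of these values is from 1 probe. For Ash1l and Rab27a a second present probe did not show such a spread. It had -1.11, -2.02 and -1.55 for Ash1l and -1.90, -1.64 and -1.50 for Rab27a. The other probes of Ica1l, Ttc26, Loxl2, Serpinb1b and Pabpc2 were above background on 0 arrays and could not show it. Tent5c, Akap4 and Nkpd1 have no other probe. None of these 10 is a member of the lists. Among the defining genes of the blood lineages that were present, Cd3d had the largest SD, 0.75.

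Promoters of genes present on 3 control arrays and of genes above background on 0 had different base composition. The 250 bases before each gene's start were read from a RefSeq table for GRCm38.p6, which held 14240 of the 17907 genes, some with several starts. For each promoter the CpG ratio is the count of CG pairs over the count expected from its C and G content. It had a median of 0.73 over 10685 promoters of present genes and 0.30 over 5790 promoters of genes above background on 0 arrays, and it was at least 0.6 for 66.6% and 24.1% of them. GC content had medians of 60% and 51.2%. The letters TATAAA, searched on both strands, were in 6.4% of promoters of present genes and 17.5% of the others, beside 12.4% of all 32851 promoters in the table. GGGCGG, a letter run of Sp1 sites, was in 58.3% and 29.7% (32.7% of all), and CCGGAA, the core run of Ets sites, in 22.6% and 6.27% (12% of all). These shares are descriptions, and GGGCGG and CCGGAA both contain a CG pair, so they share letters with the CpG ratio.

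**Figure D4:**
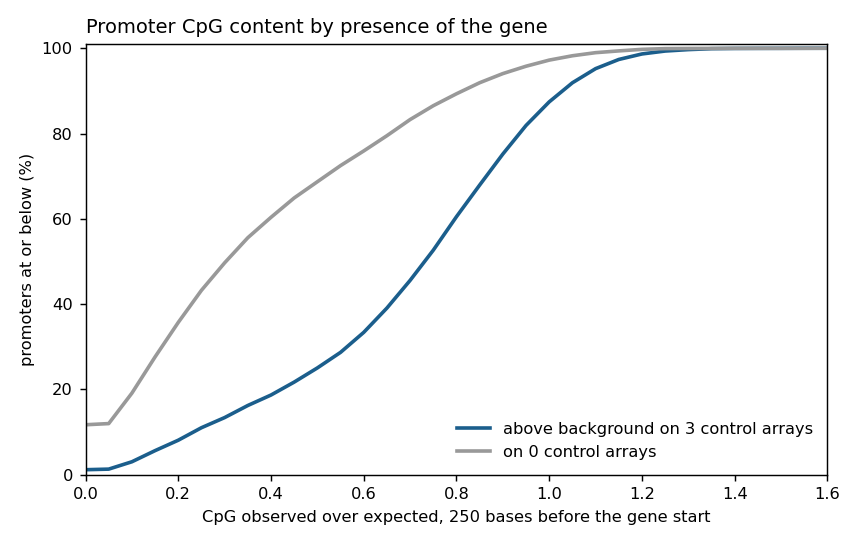
Cumulative share of promoters, in percent, against the CpG ratio of the 250 bases before the gene start, for genes well above background on 3 control arrays and on 0. The curve of present genes lies to the right, with a median of 0.73 against 0.30.

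Several lineage lists had ratios near those of genes above background on 0 arrays. Their promoters had median CpG ratios of 0.26 for early lymphoid genes, 0.24 for T cell genes and 0.21 for committed B cell genes. These came from the 13, 17 and 16 genes of the lists that the RefSeq table held. Over the full lists 15 of 17, 17 of 23 and 10 of 22 genes were present. Promoters of cell cycle genes had a median ratio of 0.78. The next 4 promoters are shown because the ratio differs widely within each pair, present genes and genes above background on 0 arrays. Each CG is in capitals, the gene's start follows the last base, and coordinates are on GRCm38.p6. Il7r (chr15:9529877-9530126, minus strand) and Flt3 (chr5:147400490-147400739, minus strand) were present with CpG ratios of 0.084 and 0.60, from 1 and 13 CG pairs, both below the median of 0.73 of present genes. Cd79a (chr7:24897247-24897496, plus strand) and Pax5 (chr4:44710695-44710944, minus strand) were above background on 0 arrays with ratios of 0.28 and 0.88, from 6 and 19 CG pairs, the first near and the second above that group's median of 0.30.
Il7r: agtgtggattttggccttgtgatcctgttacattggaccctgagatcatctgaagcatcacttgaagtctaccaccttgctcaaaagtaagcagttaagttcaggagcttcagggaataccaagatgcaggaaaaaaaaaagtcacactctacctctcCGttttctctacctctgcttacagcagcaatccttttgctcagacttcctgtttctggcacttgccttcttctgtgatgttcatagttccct
Flt3: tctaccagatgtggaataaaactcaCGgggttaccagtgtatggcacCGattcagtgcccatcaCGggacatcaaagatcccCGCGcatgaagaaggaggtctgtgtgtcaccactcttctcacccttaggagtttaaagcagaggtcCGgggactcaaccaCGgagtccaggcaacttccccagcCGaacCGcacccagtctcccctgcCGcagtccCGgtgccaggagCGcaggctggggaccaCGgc
Cd79a: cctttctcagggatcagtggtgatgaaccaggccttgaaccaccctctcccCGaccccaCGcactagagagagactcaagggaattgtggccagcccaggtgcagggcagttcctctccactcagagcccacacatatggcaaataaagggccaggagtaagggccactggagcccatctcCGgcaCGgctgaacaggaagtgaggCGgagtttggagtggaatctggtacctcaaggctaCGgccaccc
Pax5: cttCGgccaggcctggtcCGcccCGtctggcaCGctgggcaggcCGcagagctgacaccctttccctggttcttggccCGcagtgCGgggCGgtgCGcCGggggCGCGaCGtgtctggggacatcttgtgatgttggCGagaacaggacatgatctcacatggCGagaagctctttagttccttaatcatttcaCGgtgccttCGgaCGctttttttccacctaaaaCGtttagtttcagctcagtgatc

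The palindrome that Ebf proteins bind, CCCNNGGG with a T before and an A after it, was searched in the same windows. It was in 88 promoters of present genes (0.824%) and in 55 of genes above background on 0 arrays (0.950%), beside 0.779% of all promoters in the table, so the shares lay close together. The promoter of Cd22, an inhibitory coreceptor of B cells that was above background on 0 arrays at -6.53, -6.66 and -6.24, is shown as one that holds the letters, in capitals, 49 bases before the start (chr7:30879029-30879278, GRCm38.p6, minus strand). A match is a run of letters and not a measured site.
Cd22: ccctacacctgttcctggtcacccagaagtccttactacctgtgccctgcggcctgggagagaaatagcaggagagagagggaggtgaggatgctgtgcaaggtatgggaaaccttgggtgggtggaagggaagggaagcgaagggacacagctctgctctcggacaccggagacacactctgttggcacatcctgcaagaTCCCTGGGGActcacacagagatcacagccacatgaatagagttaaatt

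The control samples were last set against the 3 Ebf1-virus samples, to show where the resting programme stood apart. Of 11050 genes tested with limma, 1283 were called lower in the Ebf1-virus cells (11.6%) and 1429 higher (12.9%) at an adjusted p of 0.05. Over probes 53% of calls were higher, and with median scaling, which moves the median change of all probes from -0.06 to -0.37, 32.2% were. The Ebf1-virus arrays also had more spots well above background, 50.5% to 60.1% against 46.6% to 50.5%. Control replicates 1 and 3 share a slide, Ebf1-virus replicates 2 and 3 share another, and the remaining slide holds control replicate 2 and Ebf1-virus replicate 1, so only that slide compares the groups within itself.

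Of the 5 marks, 4 were called lower in the Ebf1-virus cells. Gata3 was at -1.68, -1.0 and -1.17 on the Ebf1-virus arrays, a change of -2.53 ± 0.22 (SE, adjusted p = 1.7e-04). Itgax was at -3.78, -3.38 and -3.38, a change of -2.69 ± 0.18 (adjusted p = 4.5e-05). For Kit the change was -1.82 ± 0.18 (adjusted p = 3.2e-04) and for Il7r -1.69 ± 0.15 (adjusted p = 2.0e-04). No control array overlapped an Ebf1-virus array for any of these 4, which follows from changes this large beside their SE and is not separate evidence. On the shared slide the differences were -3.09, -3.16, -2.07 and -1.88. Flt3 had 2.64, 2.02 and 1.71, a change of 0.67 ± 0.26 that was not called (adjusted p = 0.11), except with normexp correction, where it was 0.74 (adjusted p = 0.026).

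By list, changes are given for members present on all 3 control arrays, since a gene that passed the filter through the Ebf1-virus arrays alone had to be higher there. This choice leans the other way, toward lower calls, because it leaves out genes that rose from background. Over all tested members, committed B cell genes had 10 of 16 higher and 0 lower (median 2.04). Erythroid and megakaryocyte genes then had 7 of 11 higher and 2 lower (median 1.54), and myeloid genes 4 of 14 higher and 6 lower (median 0.002). Of all 10305 genes present on all 3 control arrays 12.5% were called lower and 10.1% higher, with a median change of -0.11. Dendritic cell genes had 7 of 12 lower and 0 higher, with a median of -1.02 that was -0.71 with normexp. Chemokine receptor and adhesion genes had 12 of 21 lower and 1 higher (median -0.87), with Ccr9 at -2.50 ± 0.26 (adjusted p = 4.4e-04) and Ccr2, an inflammatory homing receptor, at -2.89 ± 0.20 (adjusted p = 5.6e-05). T cell genes had 8 of 17 lower and 1, Tcf7, higher (median -0.35, and -0.19 with normexp). Stem and progenitor genes had 8 of 19 lower and 2 higher (median -0.42), and natural killer and innate lymphoid genes 5 of 14 lower and 3 higher (median -0.52). Among the higher ones Gzma changed by 5.36 ± 0.16 (adjusted p = 1.2e-06). Myeloid genes had 6 of 12 lower, Mpo among them, and 2 higher, Cebpb among them (median -0.60, and -0.33 with normexp). Committed B cell genes had 4 of 10 higher, Vpreb1, Cd79b and Plcg2 among them, and 0 lower (median 0.41). Erythroid and megakaryocyte genes had 3 of 7 higher, Zfpm1 and Gp9 among them, and 2 lower, Tfrc and Itga2b (median 0.28, and 0.07 with normexp). Notch pathway genes had 3 of 11 higher and 0 lower (median 0.26), with Notch1 at 2.01 ± 0.15 (adjusted p = 9.2e-05) and Dtx1 at 3.49 ± 0.25 (adjusted p = 6.6e-05). Cell cycle genes had 2 of 26 higher and 1, Ccne1, lower, the last named after its value was seen. Of the stromal genes 4 of 14 were higher, with the summed levels given above.

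The slide and the scaling changed several of these counts. With the slide as a block 463 of the genes present in control cells were called lower and 447 higher. Lower calls were then 6 for dendritic cell, 7 for chemokine receptor, 6 for T cell, 6 for stem and progenitor, 4 for myeloid, 2 for natural killer and innate lymphoid and 1 for erythroid genes, and Notch pathway genes gained 2. Higher calls fell to 1 for stromal and for myeloid genes and to 0 for T cell and cell cycle genes, and the medians of T cell and of stem and progenitor genes were -0.67 and -0.83. With median scaling 420 of all 10305 genes present in control cells were called higher and 1433 lower, and their median moved from -0.11 to -0.42. Called higher then were 0 of 14 stromal, 0 of 26 cell cycle and 1 of 12 myeloid genes. The medians of the B lineage factors (0.14 to -0.17), the erythroid genes (0.28 to -0.03) and the Notch genes (0.26 to -0.05) changed sign.

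**Figure D5:**
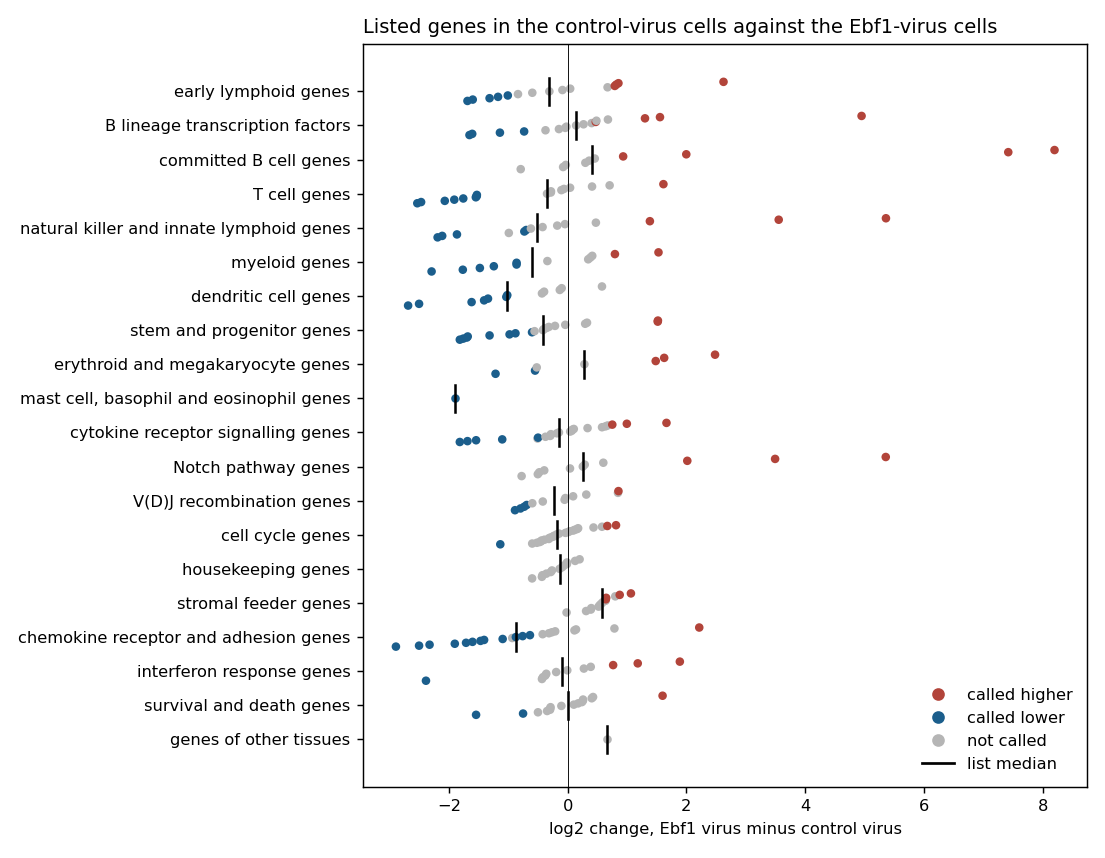
Change of every gene of the 20 lists that was present on all control arrays, as log2 of the Ebf1-virus level minus the control level, coloured by the call, with a bar at the list's median. The dendritic cell and chemokine receptor medians lie at -1.02 and -0.87, left of 0, and the committed B cell median at 0.41.

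Presence itself moved mostly one way. Of the 10305 genes present on the control arrays 10236 were present on the Ebf1-virus arrays too, by any probe. Only 10 genes were present on all control arrays and above background on 0 Ebf1-virus arrays, and 303 were the reverse, beside the larger share of spots above background on the Ebf1-virus arrays. The 10 were picked by this contrast, so their values are a description. With the dim group held at each array's lowest above-background signal, Akap4, a kinase anchor of sperm, was at least 14.5-fold lower in the Ebf1-virus cells, though its control arrays ranged from -3.17 to -0.25. Calm5, a calmodulin-like gene, had control levels of -2.39, -2.78 and -2.47 and was at least 6.32-fold lower. Rasgrp3, an activator of Ras in lymphocytes, had -2.77, -2.69 and -2.89 and was at least 4.97-fold lower, and Ctla4, the inhibitory receptor of T cells, had -3.10, -2.61 and -2.92 and was at least 4.81-fold lower. Bounds for Gpr65, Shisal2b, Slc24a3, Wfdc17, Olfr19 and Tox3 were 1.99- to 3.33-fold. All 10 are read by 1 probe each.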

How the data were processed

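RNA from 6 samples was hybridised to Agilent 1-colour mouse arrays, and the authors deposited each array's scanner table of spot intensity values. Per the file headers the tables come from Agilent Feature Extraction 10.5.1.1 with mm9 probe positions. The processed intensity is background-subtracted, and the deposited value table held the same numbers within 0.1% at all 45018 features. Control features (1639) and spots marked as outliers were left out, spots of a probe were averaged, and log2 intensity was taken relative to the array's 75th percentile. Probes were named through RefSeq accessions (25089 of 41174 probes, 60.9%) and otherwise kept the file's name. Presence is the scanner flag for well above background. The groups were compared with limma 3.58.1 in R 4.3.3 (lmFit and eBayes, two-sided, Benjamini-Hochberg over 20454 probes above background on all 3 arrays of at least 1 group, threshold 0.05, no block), which was tested on simulated data. The number of arrays limits the precision.

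Genes were named by rule: the defining genes of each list, up to 3 further present members with the highest mean, the 15 highest genes, the 10 with the largest SD, and the 10 with the highest control mean that were present in control cells, above background on 0 Ebf1-virus arrays and called lower. Members, lists and tests were chosen with earlier results of these data known. Alternatives were normexp (offset 50), quantile and median scaling, other presence rules and filters, replicate and slide blocks, and leaving out each array. Samples with the same replicate number did not deviate together (correlations of -0.17, -0.25 and 0.10). With 3 samples per group and slides that cross the replicate numbers, this cannot exclude that the numbers pair samples. The main fit assumed no pairing. A few genes of the lists are not reported here by name, though they count in the totals.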

Additional observations from a re-analysis of the deposited data

How the results depend on the processing

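The count of genes present in control-virus cells ranged from 8102, when every probe of a gene had to pass, to 11860 with the scanner's weaker flag for a positive and significant signal. With that flag 3 of 13 mast cell, basophil and eosinophil genes and 5 of 24 genes of other tissues were present, and with every probe required 7 of 21 stromal genes were. The counts of the other 17 lists stayed within 1.5 times under every presence rule run. Percentile ranks moved most when the median of a gene's probes was used, by up to 76.9 points (Ptprz1), and 75 of 240 moved by more than the spread among replicates with normexp correction.

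Probes called higher in the Ebf1-virus cells fell from 2350 to 1256 with median scaling, to 1341 with no filter and to 1269 with the slide as a block. Under median scaling limma gave every probe the same spread (infinite prior degrees of freedom). The main fit had 3.58, and the other settings had from 2.24 with no filter to 9.89 with normexp. Probes called lower fell from 2085 to 655 with no filter, to 898 with the slide block and to 1233 with a replicate block, which left 1863 higher. Leaving out 1 array gave 1623 to 2112 higher and 1008 to 1700 lower, with 1008 without control replicate 2, 1017 without control replicate 3 and 1362 without Ebf1-virus replicate 2. The cause was not tested. Il7r, Kit, Gata3 and Itgax kept their direction and their call under all 13 settings, the replicate block included. Of the 10 genes seen only in control cells, Gpr65, Shisal2b, Slc24a3, Wfdc17, Olfr19 and Tox3 lost the call with normexp. Gpr65 and Wfdc17 also lost it with no filter, and Gpr65 without control replicate 2 or 3. Flt3 was called higher with normexp alone.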

Other observations

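Gene families outside the lists were looked up after values had been seen. They are given as counts of present members on the control arrays, beside 57.5% of all genes with a symbol. The shares of Hoxa (54.5%) and Gimap (57.1%) lay near that one. Of the Hox clusters, whose genes set position in the embryo and self-renewal in blood, Hoxa had 6 of 11 members present, Hoxb 2 of 10, Hoxc 1 of 8 and Hoxd 0 of 9. Within Hoxa, Hoxa11 had levels of 2.64, 3.05 and 3.05 and Hoxa10 2.69, 2.68 and 2.47, while Hoxa13 at the end of the cluster was above background on 0 arrays. All 5 Cebp genes, all 3 E protein genes and all 3 Runx genes were present, and so were 8 of 9 Irf and 6 of 7 Stat genes. The toll-like receptor genes were present for 4 of 9. The Gimap genes, which act in lymphocyte survival, were present for 4 of 7, with Gimap1 at 3.45, 3.41 and 3.59. Families of other cells were mostly silent: 0 of 12 Klra receptors of natural killer cells, 4 of 45 keratins and 18 of 903 olfactory receptors (1.99%) were present.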
